A study of Aspergillus nidulans FGSC A4 with 21 samples.

Results

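The late course of carbon limitation in Aspergillus nidulans was followed in control cultures that received only the solvent, by comparing transcript levels at 48 h with those at 24 h. The genes are those that the authors' tables of differentially expressed genes (DEGs) list, by gene identifier, at both of these time points: 915 genes, out of 1503 listed at 24 h, 1529 listed at 48 h and 2403 listed at any time point. A gene had entered both tables because its level differed between benzo[a]pyrene (BaP) and the solvent dimethyl sulfoxide (DMSO) at both times, not because of any change over time, and 456 of the 915 were higher and 459 lower with BaP at both times. Genes that BaP did not move at both times could not be examined.

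All groups were hyphae of the strain FGSC A4, grown for 18 h with 1% glucose at 37°C, washed and moved to minimal medium with 0.1% glucose. Controls (DMSO) were collected 24 h and 48 h after the transfer, with 3 libraries each, and BaP-treated cells received 200 μM BaP in DMSO, also with 3 libraries at each time. Both kinds of culture therefore shared the strain, the transfer to low glucose and the solvent, and no culture kept on high glucose was compared. The libraries were made from polyadenylated RNA of whole hyphal pellets, so that fewer cells of a kind and less RNA per cell cannot be told apart. No label states that the 3 libraries of a group came from separate cultures, and p-values then measure only the spread between these libraries. None of the 11 markers of conidiophores and conidia that were looked for was among the 915 genes, so the label of hyphae could not be checked with them.

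When glucose runs low, filamentous fungi release genes for the use of other carbon sources from carbon catabolite repression, secrete hydrolases and proteases, and may turn to secondary metabolism and sporulation. Sterigmatocystin, a precursor of aflatoxin, is the polyketide made by a gene cluster that the transcription factor AflR activates. Starch breakdown in Aspergillus is under the activator AmyR, which turns on amylase and glucosidase genes in the presence of isomaltose and maltose.

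Values are RPKM, that is, read counts scaled to transcript length and library size, so that levels can be compared between genes. The library sizes recovered from the control values ranged from 8.40 to 12.1 M. They carry a scaling factor of the authors and are not counts of sequenced reads. The median gene had 364 reads at 24 h and 297 at 48 h. Only 5 genes had under 3 reads on average at 48 h, and the called genes described below had at least 113 reads on average at 24 h and 12.3 at 48 h. It is not known whether the authors scaled the 24 h and 48 h tables together, and a common offset between them would move the change of every gene equally. On the log2 scale, the deposited values differed from the authors' mean expression by -0.016 at 24 h and by 0.061 at 48 h. The sign of a median change of about that size is therefore not settled. The median change over all 915 genes was 0.02 on the log2 scale.

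The control libraries are called D25, D26 and D27 at 24 h and D31, D32 and D33 at 48 h after the tables' columns, those with BaP B22 to B24 and B28 to B30, and values by library are given in that order. Across the 915 genes, D33 stood apart from the other controls at 48 h, with r = 0.83 with D31 and 0.87 with D32, whereas D31 and D32 had r = 0.99 with each other. D33 had r = 0.92, 0.88 and 0.87 with the BaP libraries B28, B29 and B30 of its time. At 24 h the controls lay in a series, with r = 0.94 between D25 and D26, 0.95 between D25 and D27 and 0.82 between D26 and D27. D26 was at the end nearer to the BaP libraries, with r = 0.95 with B23, 0.85 with B24 and 0.81 with B22, of which B23 was itself nearest to the controls. D26 and D33 had r = 0.93 with each other. These are descriptions across genes, which are not independent, and all genes had been selected for a BaP effect. In D33 the genes higher with BaP had a median level of 5.05 on the log2(RPKM + 1) scale, against 3.89 in D31 and 4.02 in D32. In D26 the same median was 4.80, against 4.22 in D25 and 3.71 in D27. The genes lower with BaP had a median of 3.94 in D33, against 4.75 in D31 and 4.74 in D32. For D26 it was 4.33, against 4.69 in D25 and 4.83 in D27. The comparison of the controls over time and the interaction below were therefore also computed without D26 and D33. This choice was made after the values had been seen. Counts of genes whose groups did not overlap were not recomputed, nor were the calls for each course in the fit that included BaP libraries.

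Between 24 h and 48 h, few of the genes that respond to BaP passed the threshold for a change in the controls. The other genes were not shown to be unchanged. In limma, on log2(RPKM + 1), 19 of the 915 genes passed the threshold of an adjusted p under 0.05 and a log2 fold change over 1 or under -1, which is 2.08% of the genes tested. Of these, 4 rose (0.437%) and 15 fell (1.64%), and all 19 were among the 459 of the 915 genes that were lower with BaP at both times. At an unadjusted p under 0.05 the number was 102 (11.1%). The 3 libraries at 48 h all lay above those at 24 h for 85 genes (9.29%) and all below for 109 (11.9%), and the 19 called genes were among them. The genes had been selected on the same libraries, though for another contrast, and what that does to these p-values was not tested.

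The number of calls depended on which library was left out. Without D33, 30 genes were called, 14 higher and 16 lower at 48 h. Leaving out D25, D27, D31 or D32 left 7, 8, 9 and 7 genes, all of them lower at 48 h, and without D26 14 genes were called, of which 1 rose. When both D26 and D33 were left out, 53 genes were called, 17 higher and 36 lower, and all 19 were among them. The 7 genes that stayed called whichever library was left out were AN11017, AN7809, stcN, stcA, stcV, xlnA and AN0497.

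**Figure D1:**
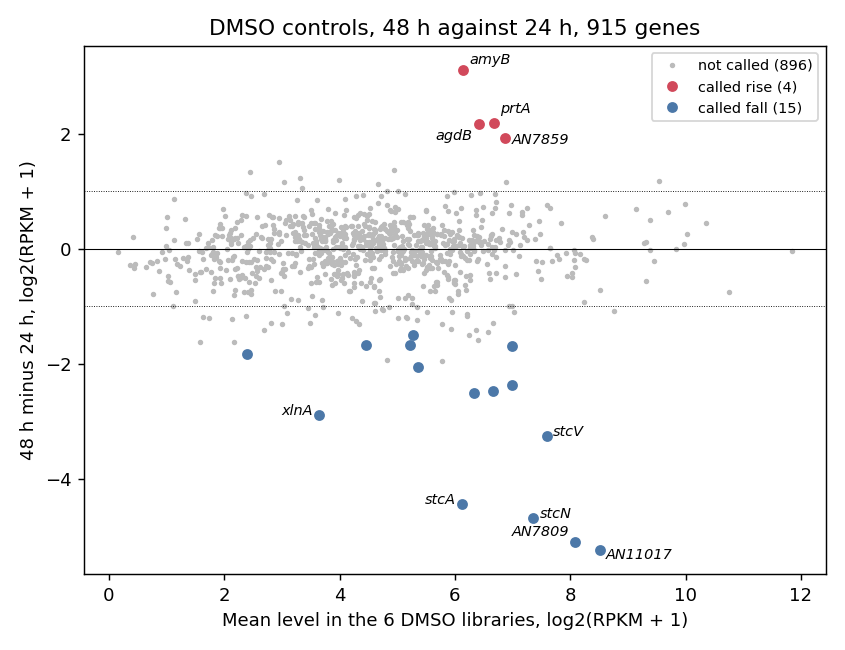
Change from 24 h to 48 h in the DMSO controls (vertical axis, difference of mean log2(RPKM + 1)) against the mean level in the 6 control libraries (horizontal axis, log2(RPKM + 1)) for the 915 genes, 1 point per gene, with called rises in red, called falls in blue and dotted lines at changes of 1 and -1. Most genes lie close to 0, while 5 genes of the sterigmatocystin region lie below -3 and amyB lies at 3.12.

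The largest falls were in the sterigmatocystin region of chromosome IV. Its 8 listed genes lie between positions 2739867 and 2790165 in the coordinates of the authors' tables, which name no genome build, and all 8 had lower values in every 48 h library than in any 24 h library. Of the 8, 6 were called and 2, aflR and its neighbour AN7819, were not. The median change over the 8 genes was -3.85 on the log2 scale, against 0.02 over all 915 genes, and it was -3.67 without D26 and D33.

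AN11017 lies next to stcN in the region, and the tables describe it only by its orthologs. It stood at 671, 642 and 814 RPKM at 24 h and at 29, 15.2 and 12.3 RPKM at 48 h. The 2 groups did not come near each other, and the mean level fell 37.6-fold (log2 fold change -5.24, SE 0.35, adjusted p = 0.000495 in limma). AN7809, likewise described only by orthologs, stood at 514, 462 and 595 RPKM at 24 h and at 22.6, 12.3 and 10.0 RPKM at 48 h, a fall of 5.11 on the log2 scale (SE 0.34, adjusted p = 0.000495 in limma).

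stcA encodes the polyketide synthase that builds the carbon skeleton of sterigmatocystin. Its level was 132, 133 and 129.7 RPKM at 24 h, with very little spread, and 7.96, 3.91 and 4.13 RPKM at 48 h. The mean was 24.6-fold lower at 48 h (log2 fold change -4.44, SE 0.30, adjusted p = 0.000495 in limma). stcN encodes a putative versicolorin B synthase, a later step, and went from 314, 280.2 and 347 RPKM to 18.3, 8.73 and 8.84 RPKM (log2 fold change -4.67, SE 0.33, adjusted p = 0.000532 in limma). In both genes D31 held the highest of the 48 h values, and every 48 h library lay far below the 24 h libraries.

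stcV, a putative norsolorinic acid reductase of an early step, stood at 380.4, 331 and 329 RPKM at 24 h and at 47.0, 38.7 and 24.6 RPKM at 48 h. The fall was 9.43-fold (log2 fold change -3.25, SE 0.30, adjusted p = 0.00211 in limma), smaller than those of stcA and stcN, though this difference between genes was not tested. stcF, a putative cytochrome P450 monooxygenase of the pathway, went from 180.2, 141 and 189.7 RPKM to 40.0, 32.9 and 19.7 RPKM. Its call (log2 fold change -2.47, SE 0.32, adjusted p = 0.0129 in limma) was kept in 3 of the 6 fits that left out a library.

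The activator of the cluster did not pass the threshold in the fit of the controls alone. aflR, the zinc-cluster activator of the sterigmatocystin genes, was at 125, 112 and 135 RPKM at 24 h and at 56.1, 44.7 and 26.7 RPKM at 48 h. The groups did not overlap, but the log2 fold change of -1.58 (SE 0.32) did not pass, with an adjusted p of 0.0727 in limma. It was -1.35 without D26 and D33, with an adjusted p of 0.0339. AN7819, whose orthologs take part in the regulation of aflatoxin synthesis and which was chosen here for its position, went from 137, 119 and 153 RPKM to 67.9, 52.8 and 33.4 RPKM (log2 fold change -1.44, SE 0.32, adjusted p = 0.0899 in limma).

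The next listed genes on either side were not called. AN7826, which begins 1.13 kb beyond the end of stcA, had a log2 fold change of -0.11 (adjusted p = 0.991 in limma). On the other side AN12088, at 28.1 kb from stcV, had a log2 fold change of 0.71 (adjusted p = 0.479). These neighbours were looked up after their values were seen, and genes between them and the region that are not in both tables were not analysed here.

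**Figure D2:**
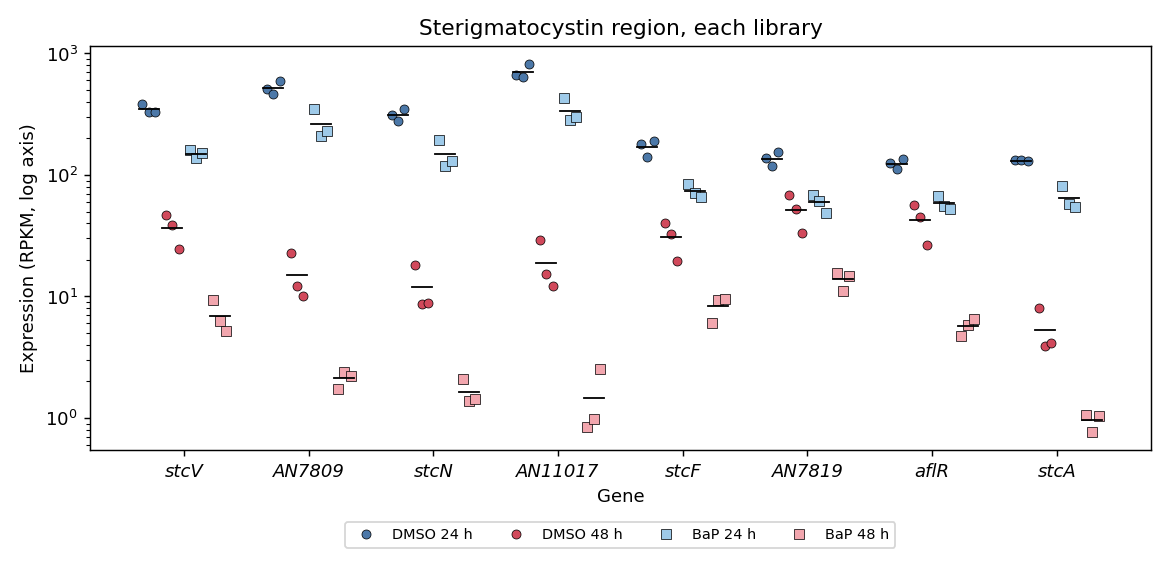
RPKM (log axis) of the 8 listed genes of the sterigmatocystin region in their order along the chromosome, with 1 point per library for DMSO (circles) and BaP (squares) at 24 h and 48 h, and a line at each group mean. In all 8 genes the DMSO libraries at 48 h lie below those at 24 h, from 814 RPKM at the highest to 3.91 RPKM at the lowest, and the BaP libraries do so as well.

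Outside this region, 9 genes were called as falls. xlnA encodes a xylanase under carbon catabolite repression. Its level was 18.9, 18.1 and 25.9 RPKM at 24 h and was low at 48 h, at 2.39, 1.30 and 2.28 RPKM. The fall of 10.5-fold in the mean (log2 fold change -2.88, SE 0.28, adjusted p = 0.00232 in limma) rested on 153 reads at 24 h and 12.3 at 48 h. AN0497, a predicted membrane transporter, went from 141, 121 and 146 RPKM to 20.8, 26.4 and 21.8 RPKM, with little spread at either time (log2 fold change -2.52, SE 0.23, adjusted p = 0.00211 in limma).

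AN0567, a putative alcohol oxidase, was at 236, 158 and 243 RPKM at 24 h and at 43.6, 43.7 and 32.9 RPKM at 48 h, with a log2 fold change of -2.36 (SE 0.28, adjusted p = 0.00744 in limma). ngn21, a putative acetyltransferase of the GNAT type, went from 74.9, 50.1 and 69.3 RPKM to 16, 18.4 and 10.7 RPKM (log2 fold change -2.05, SE 0.30, adjusted p = 0.0221 in limma). D26 was the lowest of the 24 h libraries in both genes, and their calls were kept in 4 and 2 of the 6 fits that left out a library. The remaining 5 called falls, named after their values had been seen, were AN3248, AN10358, AN12070, AN3573 and AN8433, with log2 fold changes between -1.83 and -1.5. AN3248, AN10358 and AN3573 carry oxidoreductase or oxidation-reduction annotations, and each of the 5 was called in no more than 2 of the 6 fits without a library. Over the 15 falls, D26 was the lowest 24 h library in 13 and D33 the lowest 48 h library in 11. This order is not particular to the falls. Over all 459 genes lower with BaP, D26 and D33 likewise had the lowest medians of the controls of their times.

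The called rises were in genes of starch breakdown, an extracellular protease and AN7859. amyB encodes a putative alpha-amylase that the tables describe as induced by isomaltose through AmyR. It was at 11.2, 12.2 and 13.1 RPKM at 24 h, almost the same in each library, and at 195, 133 and 55.1 RPKM at 48 h. The 48 h libraries differed among themselves more than those at 24 h, but all lay well above them, and the mean rose 10.5-fold (log2 fold change 3.12, SE 0.46, adjusted p = 0.0221 in limma).

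agdB encodes a putative alpha-glucosidase, which acts on maltose, and went from 27.2, 29.7 and 27 RPKM to 195, 151 and 74.4 RPKM (log2 fold change 2.18, SE 0.38, adjusted p = 0.0363 in limma). prtA, the extracellular alkaline protease, went from 28.6, 33.7 and 40.3 RPKM to 238, 173 and 97.4 RPKM (log2 fold change 2.20, SE 0.37, adjusted p = 0.0357 in limma). AN7859, described only by orthologs, went from 49.7, 43.8 and 45.4 RPKM to 212, 224 and 121 RPKM (log2 fold change 1.93, SE 0.30, adjusted p = 0.0261 in limma). In all 4 of these genes D33 was the lowest of the 48 h libraries and still above every 24 h library.

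These 4 calls were lost in the fits without D25, D27, D31 or D32, and without D26 amyB alone remained. Without D33 all 4 were called, and without D26 and D33 together their log2 fold changes were 3.63 for amyB, 2.62 for agdB, 2.55 for prtA and 2.18 for AN7859. No rise had an adjusted p under 0.01.

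The other genes of starch breakdown among the 915, chosen for their function after their values were seen, were not called. agdF, a putative alpha-glucosidase, was at 2.66, 1.98 and 2.16 RPKM at 24 h and at 2.70, 2.44 and 1.90 RPKM at 48 h, with overlapping groups and a log2 fold change of 0.03 (SE 0.24, adjusted p = 0.991 in limma). amyR, the activator, was at 22.6, 15.6 and 21.9 RPKM at 24 h and at 63.3, 45.1 and 12.9 RPKM at 48 h. Its groups overlapped, because D33 was lower than every 24 h library, and the log2 fold change was 0.74 (SE 0.56, adjusted p = 0.747 in limma) or 1.23 without D26 and D33 (adjusted p = 0.0497). agdA, another alpha-glucosidase and the neighbour of amyR on chromosome VII, went from 65.6, 56.4 and 62.6 RPKM to 122, 112 and 70.2 RPKM (log2 fold change 0.68, adjusted p = 0.439). amyF had 27.3, 22.5 and 17.2 RPKM at 24 h and 57.9, 53.3 and 26.5 RPKM at 48 h, with a log2 fold change of 0.95 (adjusted p = 0.368), so that its groups overlapped as well.

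**Figure D3:**
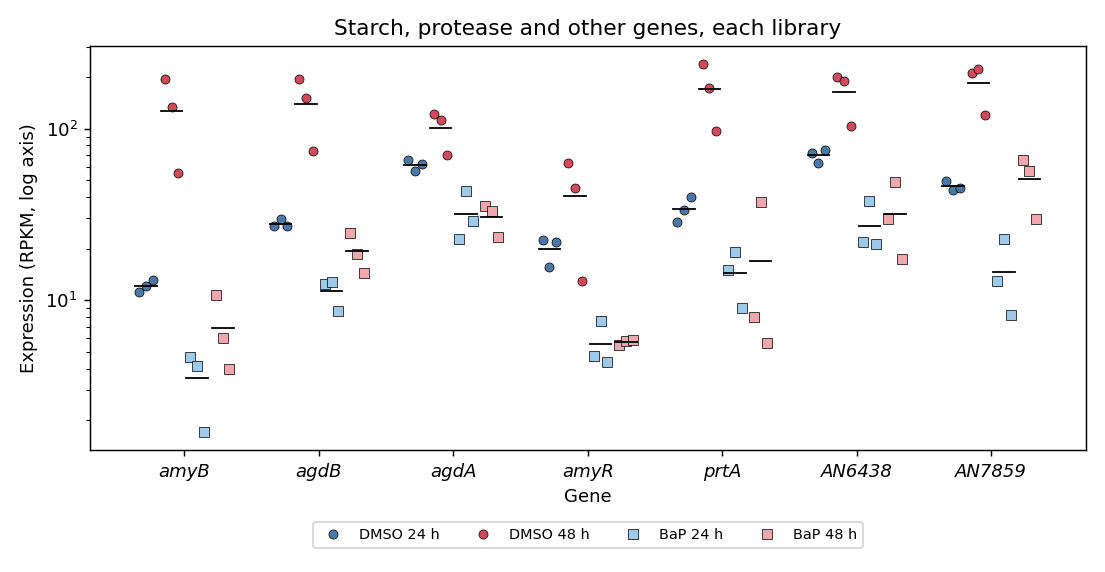
RPKM (log axis) of the starch genes amyB, agdB, agdA and amyR, the peptidase genes prtA and AN6438, and AN7859, with 1 point per library for DMSO (circles) and BaP (squares) at 24 h and 48 h, and a line at each group mean. In amyB the DMSO libraries move from 11.2 to 13.1 RPKM at 24 h to 55.1 to 195 RPKM at 48 h, and in amyR library D33 at 12.9 RPKM lies below the 24 h libraries.

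Since only 4 rises were called, the genes with the next largest differences are given as well, although none passed. AN7866, whose orthologs act in the synthesis of fumiquinazoline C, had 2.55, 2.42 and 3.93 RPKM at 24 h and 12, 12.2 and 7.12 RPKM at 48 h, with a log2 fold change of 1.51 (adjusted p = 0.0720 in limma). It lies with AN7859 and AN7867 in a stretch of chromosome II from 31154 to 62529 that holds 4 listed genes. AN7867, a predicted transcription factor, had a log2 fold change of 1.24 (adjusted p = 0.112), and the fourth gene, the putative xylosidase bxlD, one of -0.28 with overlapping groups. The others were AN7963 of unknown function (1.33), the predicted transcription factor AN7508 (1.2) and AN1659 (1.19), an amino acid transporter that was already at 385 to 515 RPKM at 24 h and reached 653 to 1299 RPKM.

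The penicillin genes, which lie together on chromosome VI between 3358277 and 3373783, had higher means at 48 h, and none was called. aatA, the acyltransferase of the last step, was at 16.3, 10.6 and 18.3 RPKM at 24 h and at 60.9, 51.8 and 19.9 RPKM at 48 h, with a log2 fold change of 1.38 (SE 0.46, adjusted p = 0.263 in limma). ipnA, isopenicillin-N synthase, went from 54.7, 42.4 and 65.3 RPKM to 173, 121 and 56.2 RPKM, where D33 fell within the 24 h range (log2 fold change 0.97, adjusted p = 0.456). acvA, the large synthetase of the first step, stayed between 0.568 and 1.63 RPKM, and every 48 h value exceeded every 24 h value, a log2 fold change of 0.56 with an adjusted p of 0.388. The log2 fold change of aatA without D26 and D33 was 1.65, with an adjusted p of 0.0181.

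By function, 17 of the 23 gene lists held no called gene. At a share of 2.08% of all 915 genes called, lists of this size hold few calls or none, so nothing is read from such a count. The 5 sterigmatocystin genes, aflR and those with an stc symbol, had 4 called falls and a median change of -3.25, and the study had chosen this pathway on the same samples. The 26 polysaccharide hydrolases and their regulators had 2 rises and 1 fall, amyB, agdB and xlnA, with a median of 0.20. The 8 proteases had 1 rise, prtA, and a median of 0.35; the dipeptidyl-peptidase AN6438 did not pass at 1.16, and the mitochondrial AN8780 stood at -0.94. The autophagy and vacuole list of 11 genes held 1 rise, agdB, which enters because its description mentions induction during autophagy. The gene napB, which likewise enters by a word in its description, had 0.36. AN10637, whose orthologs act in microautophagy, had 0.33.

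The 44 genes of ribosome biogenesis, which make the ribosomes that growing cells need, mostly had small positive differences. None was called, 37 lay above 0 and 7 below, and the log2 fold changes ran from -0.21 to 0.62 around a median of 0.25, against 0.02 for all genes. In 16 of the 44 all 48 h libraries lay above all 24 h libraries, where 9.29% of the 915 did so. All 44 were higher with BaP, and without D26 and D33 their median was 0.18. Of the 915 genes, 475 lay above 0. Of the 456 genes higher with BaP, 288 lay above 0, and in 49 all 48 h libraries lay above all 24 h libraries. The median of these 456 was 0.12, or 0.03 without D26 and D33. AN10943, whose orthologs mature ribosomal RNA, was at 11.1, 8.15 and 14.1 RPKM at 24 h and at 19.1, 18.2 and 14.8 RPKM at 48 h, where D33 lay just above D27 (log2 fold change 0.62, SE 0.28, adjusted p = 0.450 in limma). AN7526, with the same role, had 0.60, and AN6149, whose orthologs assemble the mitochondrial ribosome, had 0.55.

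For central metabolism, the number of listed genes was too small to read anything from the absence of calls at a share of 2.08% over all genes. Among the 4 genes of glycolysis and the pentose phosphate pathway, phosphofructokinase pfkA had 30.4, 55.9 and 11.7 RPKM at 24 h and 22.4, 33.1 and 111 RPKM at 48 h, which overlapped (log2 fold change 0.66, adjusted p = 0.888 in limma). tpiA, triose-phosphate isomerase, and swoM, glucose-6-phosphate isomerase, stood at 0.16 and 0.13. gsdA, the first enzyme of the pentose phosphate pathway, was at 0.06, and citA, the mitochondrial citrate synthase, at 0.01. In pfkA, gsdA and citA the highest 24 h value was that of D26 and the highest 48 h value that of D33. citA, for example, had 73.9, 112 and 40.0 RPKM at 24 h and 50.9, 52.9 and 126 RPKM at 48 h.

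The list of the tricarboxylic acid cycle, glyoxylate cycle and gluconeogenesis held 9 genes, none of them called, with a median of -0.30. Its largest differences came from genes outside the cycle. fahA, the last enzyme of phenylalanine breakdown, which releases fumarate, went from 85.1, 43.2 and 127 RPKM to 33.7, 26.9 and 7.83 RPKM (log2 fold change -1.94, SE 0.61, adjusted p = 0.238 in limma). maiA, its neighbour on chromosome VII and the enzyme of the step before, had a log2 fold change of -1.31 (adjusted p = 0.306). Leaving out D26 and D33 gave -1.75 and -1.01, with adjusted p-values of 0.0372 and 0.0469. AN10700, with an oxaloacetate decarboxylase annotation, was at -1.2.

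Respiration, with cycA for cytochrome c at 0.20, AN1066 for the assembly of complex IV at 0.20 and the cytochrome c peroxidase AN5440 at -0.17, had a median of 0.04 over 5 genes. The 54 mitochondrial genes had a median of 0.12, with the glycine dehydrogenase AN10901 at 1.12 and the transporter AN9010 at -1.07. The 63 transport genes held 1 call, AN0497, and a median of 0.00, and AN1681 followed at -1.39 (adjusted p = 0.0735 in limma). The 3 sugar transporters AN9173, AN4590 and AN3515 lay between -0.04 and 0.20.

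The 49 genes whose description names an amino acid had a median of 0.11. That list came from words alone and also holds protein kinases and phosphatases such as ran1 and AN4057 and peptidases such as AN8780, so that its median does not describe amino acid metabolism. The 10 genes of purine and pyrimidine metabolism had a median of 0.05, with AN0072 at 0.51, AN4228 at -0.33 and the purine permease uapA at -0.30. The 37 lipid genes had a median of 0.05. AN9041 and aoxB, both of fatty acid beta-oxidation, had -1.29 and -0.99, and the lipase domain gene AN2602 had 1.00. aoxB was scarce, with 41.0 reads at 24 h and 8.33 at 48 h. The 4 chaperone genes had a median of 0.21, led by hsp104 at 0.82, ssz1 at 0.32 and hscA at 0.11.

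In the lists of development and secondary metabolism, the only called gene lay in the sterigmatocystin region. The 5 genes with conidia or spores in their description lay between 0.09 and 0.66, with AN0928 at 0.66, the conidium-specific SpoC1-C1C at 0.54 and the helix-loop-helix factor devR at 0.15. The secondary metabolism list of 19 genes had a median of 0.06, and its only call was stcA. veA, the light-dependent regulator of development and secondary metabolism, had 79.8, 51.2 and 88.6 RPKM at 24 h and 113, 102 and 40.3 RPKM at 48 h, with a log2 fold change of 0.12 (adjusted p = 0.984 in limma). Of the 7 cytochrome P450 genes named as such, CYP5078A3 was at -1.07, CYP682A1 at 0.80 and CYP62C1 at -0.57.

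The 43 transcription factor genes had no call and a median of 0.05. The 18 genes annotated with nitrate, NirA or ammonium, led by aflR and AN9185 at -1.30, had a median of -0.29 with 13 below 0. Of the 4 redox genes, the flavohemoprotein fhbB was at -0.81, the glutathione gene AN5658 at 0.21 and AN5440 as above. The 11 genes of the list of protein kinases and GTPases, which also holds phosphatases, with ffkA at 0.67, AN10627 at 0.24 and AN8079 at 0.23, had a median of -0.0023. The endochitinase chiC, the only listed cell wall hydrolase, was at 0.17, and the DNA repair genes AN0604 and AN0097 were at 0.27 and 0.18.

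**Figure D4:**
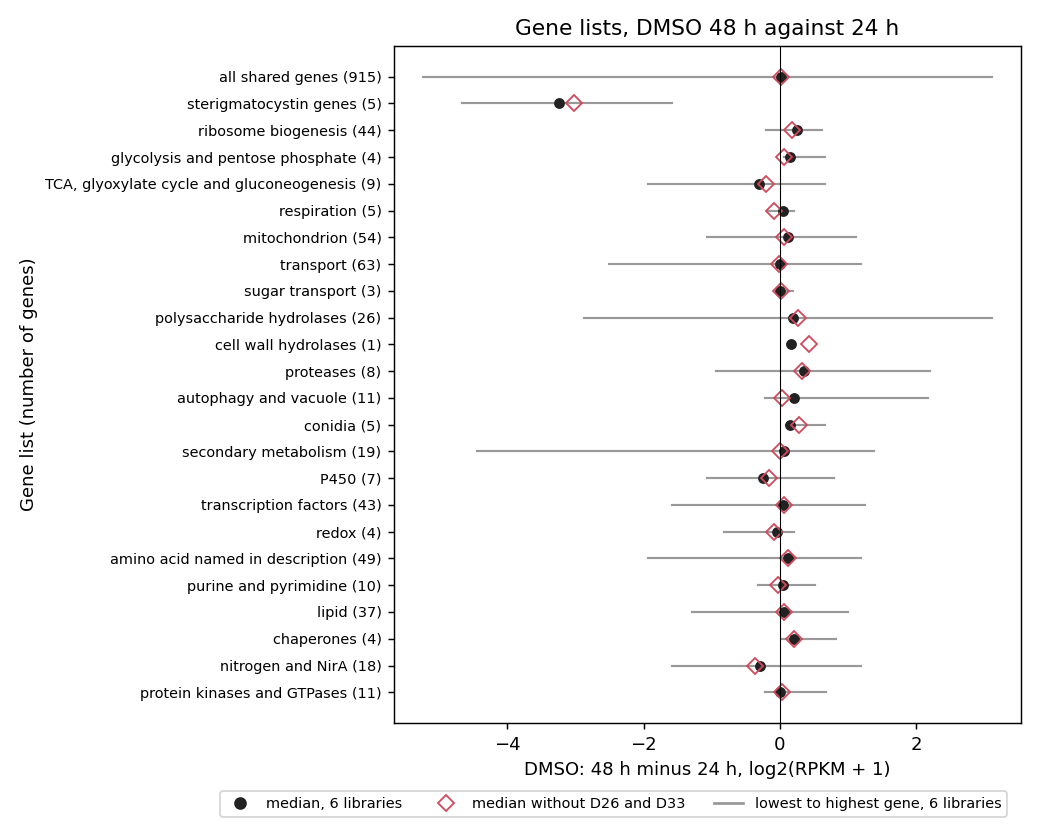
Change from 24 h to 48 h in the DMSO controls for each gene list (horizontal axis, log2(RPKM + 1)), with the number of genes in brackets, the median as a filled circle, the median without D26 and D33 as an open diamond, and a line from the lowest to the highest gene. The sterigmatocystin genes have a median of -3.25, and those of the other lists lie between -0.30 and 0.35.

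In the controls, the genes selected for opposite effects of BaP had medians on either side of 0. Those higher with BaP had a median change of 0.12 from 24 h to 48 h and those lower with BaP one of -0.11. These medians without D26 and D33 were 0.03 and -0.01.

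BaP-treated cells, in other libraries, gave the same contrast for comparison. In the fit of all 12 libraries, 2 genes rose (0.219%) and 38 fell (4.15%) from 24 h to 48 h with BaP, where the controls in that fit had 7 rises and 24 falls. Of the falls, 22 were shared, which is 91.7% of those in the controls and 57.9% of those with BaP. Of the 15 falls from the 6 control libraries, 14 were called with BaP, all except AN3248, and of the 4 rises 1 was, AN7859.

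The selection for a BaP effect fixes that a listed gene differed between BaP and DMSO at each time, but not in which direction. All 19 called genes were lower with BaP at both times. AN11017 went from 429, 286 and 300.3 RPKM at 24 h to 0.837, 0.983 and 2.52 RPKM at 48 h with BaP, a log2 fold change of -7.15, and aflR from 67.0, 55.6 and 52.0 RPKM to 4.73, 5.78 and 6.54 RPKM, one of -3.15. Of the 4 genes that rose in the controls, AN7859 was called with BaP at a log2 fold change of 1.76, and the other three were not. amyB with BaP was at 4.66, 4.13 and 1.71 RPKM at 24 h and at 10.7, 6.03 and 3.97 RPKM at 48 h, a log2 fold change of 0.79. For prtA it was -0.16 and for agdB 0.71.

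Whether the 2 courses differed was tested by the interaction term, and no gene passed (0.0%), with 17 of 915 (1.86%) at an unadjusted p under 0.05. The smallest adjusted p was 0.756. The 3 genes with the smallest p, chosen after their values were seen, were AN11017, whose log2 fold change in the controls minus that with BaP was 1.91 (SE 0.50), a smaller fall, aflR at 1.57 (SE 0.42), likewise a smaller fall, and amyB at 2.32 (SE 0.64), a larger rise. For prtA and agdB it was 2.36 (SE 0.77) and 1.47 (SE 0.50). A difference between the courses was therefore not shown for any gene with 3 libraries a group, and equal courses were not shown either.

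**Figure D5:**
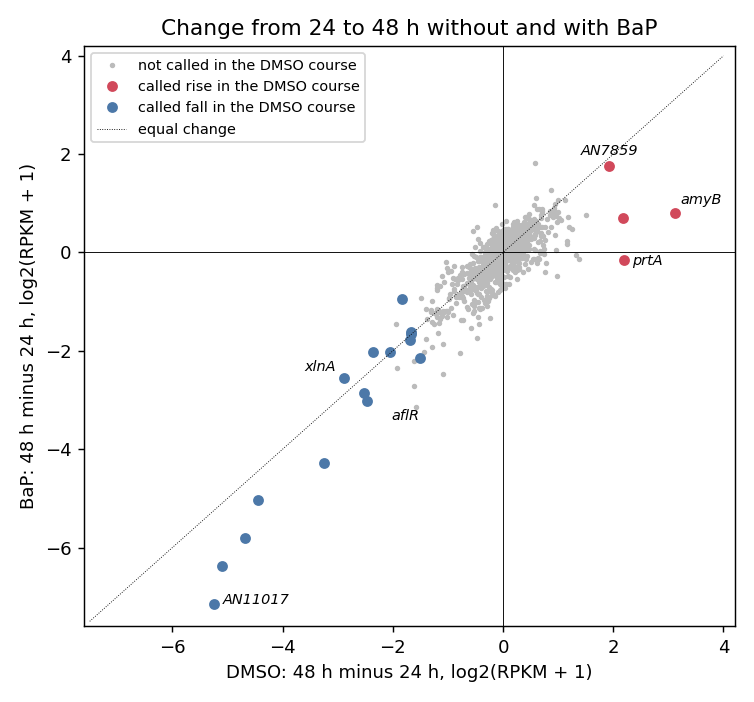
Change from 24 h to 48 h with BaP (vertical axis) against that in the DMSO controls (horizontal axis), both as differences of mean log2(RPKM + 1), for the 915 genes, with genes called in the controls in red (rise) and blue (fall) and a dotted line of equal change. The called falls lie below 0 on both axes, down to -5.24 and -7.15 for AN11017, while amyB lies at 3.12 and 0.79.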

How the data were processed

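RNA-seq of polyadenylated RNA from A. nidulans FGSC A4 was read from tables that the authors deposited for 24 h and 48 h, each limited to their DEGs. The submitters' processing notes name FastQC, Subread, featureCounts, limma and Cufflinks without versions or roles, and the genome build is not given in the sources used here. The unit of the deposited values is not named. They equal whole reads divided by transcript length and library size for 911 of the 915 genes (99.6%, within 0.005 reads), so that they were read as RPKM, and the library size carries a scaling factor of the authors. A deposited mean expression on the log2 scale, the authors' value over each table, was used only to look for an offset between the tables. Their fold changes and p-values were not used. Library kits marked strand, and whether counting used strand is not given. Groups came from column names, which all mapped to a group. The 3 samples at the start of treatment and the 6 h libraries were not used in any test.

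Genes were joined by identifier, 3 libraries at 48 h were compared with 3 at 24 h by limma 3.58.1 (R 4.3.3) on log2(RPKM + 1), without covariates, and p-values were adjusted by the Benjamini-Hochberg method over the 915 genes. Fold changes on this scale understate the change of low genes. The interaction used 12 libraries. An exact permutation test of 3 against 3 cannot give a p below 0.1 and was not used for single genes. The code was tested on simulated data. Gene lists rest on word matches in the gene descriptions that the tables hold; a match of the ribosome words to nonribosomal peptide synthetases was removed after the tables were read. Members and lists were chosen with earlier results of these data known. Named genes were the 10 largest falls among called genes with groups apart, the 10 largest rises whether called or not, since under 5 were called, the genes named in the study's account of the transcriptome, all stc genes, the 3 largest changes of each list, and genes at the ends of runs; others are marked where they occur. The alternatives were other pseudocounts, filters, scalings, limits and fits, each library left out in turn, and reads recovered from RPKM in limma's voom. Tables and figures used Python 3.11.15, pandas 2.3.3, numpy 2.4.6 and matplotlib 3.10.9. Sequences of promoters and proteins were not used here.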

Additional observations from a re-analysis of the deposited data

How the results depend on the processing

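The 19 calls (4 rises, 15 falls, in 6 lists) stayed within 1.5 times under both other pseudocounts, the filter on low values, both scalings, the trended robust fit, voom on the recovered reads, the offset between tables, and without a fold limit or with one of 2 on the log2 scale; these gave 13 to 20 calls. The fit on all 12 libraries gave 31 calls (7 rises, 24 falls) in 10 lists. Array weights gave 98 (26 rises, 72 falls) in 14 lists, with weights from 0.087 to 28.6 that had not converged. An adjusted p under 0.01 gave 8 calls (0 rises, 8 falls). Without D26 and D33 together, a setting chosen after the values were seen, there were 53 (17 rises, 36 falls) in 12 lists. With 1 library left out the calls ranged from 7 to 30, the rises from 0 to 14, the falls from 7 to 16 and the lists from 4 to 10. The median change over all genes stayed between -0.06 and 0.10, and the interaction had 0 calls in every setting.

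Among the results for named genes over all alternatives, 46 gained a call and 35 lost one. No called gene changed direction. Of 71 named genes, 19 that were not called did so in some setting. With 1 library left out their log2 fold changes ranged from -0.23 to 0.46 for AN3515, -0.021 to 0.54 for AN0604, -0.18 to 0.55 for cycA, -0.41 to 0.35 for citA, -0.49 to 0.44 for gsdA, -0.19 to 0.42 for AN0097, -0.10 to 0.37 for tpiA, -0.25 to 0.39 for swoM, -0.55 to 0.81 for AN1066, -0.46 to 0.57 for AN9173, -0.28 to 0.25 for AN4590, -0.15 to 0.58 for veA, -0.048 to 0.44 for devR, -0.71 to 0.026 for uapA, -0.47 to 0.23 for AN5440, -0.15 to 1.34 for SpoC1-C1C, -0.0020 to 1.16 for pfkA, -0.030 to 0.61 for napB and -0.019 to 0.55 for AN10637. Array weights gave -0.00031 for AN0604, -0.18 for cycA, -0.46 for citA, -0.36 for gsdA, -0.032 for AN0097, -0.064 for tpiA, -0.28 for swoM, -0.47 for AN1066, -0.46 for AN9173 and 0.024 for AN4590. Leaving out D26 and D33 gave -0.068 for citA, -0.11 for gsdA, -0.099 for AN9173 and 0.014 for AN4590. The offset between tables gave -0.065 for citA, -0.016 for gsdA and -0.067 for AN3515, and AN3515 was at -0.0091 and -0.0030 with pseudocounts of 0.1 and 0.5 and at -0.0095 in voom. The cause was not tested. No paired analysis was possible because the columns carry no replicate numbers that tie them to the labels. Depth limited few genes, since 5 had under 3 reads on average at 48 h.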
